A study of Mus musculus with 12 samples.

Results

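The genes described here encode the vascular endothelial growth factor (VEGF) ligands, their tyrosine kinase receptors and their co-receptors. They were taken by name and number 10 of the 50559 genes in the count table, and all 10 had reads in every library. The ligands are Vegfa, Vegfb, Vegfc, Vegfd and Pgf, the receptors are Flt1, Kdr and Flt4, and the co-receptors are Nrp1 and Nrp2. Members were not ranked or filtered by their values, but earlier results of these data were known when they were chosen.

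RNA was sequenced from retinas of wild-type C57BL6/J mice at postnatal day 28, in 3 libraries for each of 4 groups. Each pup received 30 µg of antibody on day 1, which was either control IgG or APB5, a rat monoclonal antibody against mouse PDGFRB, the receptor through which growing vessels recruit pericytes. The groups named IgG+Mino and APB5+Mino also received minocycline, a tetracycline with anti-inflammatory action, at 45 mg per kg each day from day 5 to day 27. The study used this antibody to make a model of retinopathy with too few pericytes in otherwise wild-type animals. The antibody was injected under the skin and was not limited to the retina. The study used 3 mice in each group for these libraries, and no label states their sex.

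VEGF signaling drives the growth and leakiness of blood vessels. VEGFA is released by cells short of oxygen and acts mainly through KDR, the main signaling receptor of endothelial cells. FLT1 binds VEGFA, VEGFB and placental growth factor (PGF) tightly and signals weakly, so that it also acts as a trap for the ligand. VEGFC and VEGFD act through FLT4 on lymphatic and sprouting endothelium. Neuropilins 1 and 2 hold VEGF beside its receptors and also bind semaphorins, which guide axons and vessels. In the retina, neurons and Müller glia are known sources of VEGFA, and drugs that block it are used against leaking and overgrowing vessels.

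The libraries held 52740545 to 59411044 counts, and values below are CPM, the counts of a gene per 1000000 counts of a library after TMM scaling. APB5 replicate 3 stood apart from the other libraries. Its summed level of 8 rod genes was 13299 CPM, against at least 49998 CPM in each of the other 11 libraries, and its summed levels of 12 microglial and 12 pigment epithelium markers were 422 and 876 CPM, against at most 95.3 and 194 CPM elsewhere. Xist, which marks female tissue, was high in 5 libraries, namely all of IgG, APB5 replicate 3 and APB5+Mino replicate 3. All IgG+Mino libraries were low in Xist, so an effect of minocycline without APB5 cannot be told apart from one of sex. APB5 replicates 1 and 2 were also low in Xist. Wherever APB5 is compared with IgG without APB5 replicate 3 below, an effect of APB5 thus cannot be told apart from one of sex either. Rod genes were present in every library at the sums above, and lens genes varied from 4.25 to 1892 CPM in sum. Pdgfrb, the antibody's target, was transcribed at 12.9 to 20.1 CPM in 11 libraries and at 38.7 CPM in APB5 replicate 3. These are whole retinas, so fewer cells of a type and less RNA per cell cannot be told apart.

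Vegfa was the most abundant member in the retina. Per kilobase of annotated exon, its mean over the 12 libraries was 40.8 ± 5.36 CPM per kb (SD), and its lowest library lay above the highest library of every other member. Vegfb followed with 14.1 ± 2.22 CPM per kb, Kdr with 10.7 ± 2.59 and Flt1 with 6.65 ± 0.792. The ranges of Vegfb and Kdr over the libraries overlapped, and so did those of Kdr and Flt1. Within each library, however, Kdr lay above Flt1, at ratios of 1.22 to 2.52. With the longest transcript as the length, the mean of this ratio was 0.992 in APB5+Mino and 1.16 to 1.44 in the other groups. Nrp2 stood at 1.62 ± 0.261 CPM per kb, and Pgf, Flt4, Vegfc and Nrp1 had overlapping ranges around means of 0.778 to 0.959. Vegfd, at 0.164 ± 0.0481 CPM per kb, lay below all other members. Taking the longest transcript of each gene as its length moved Nrp1 from rank 9 to rank 6 and left the first 5 and the last in place.

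**Figure D1:**
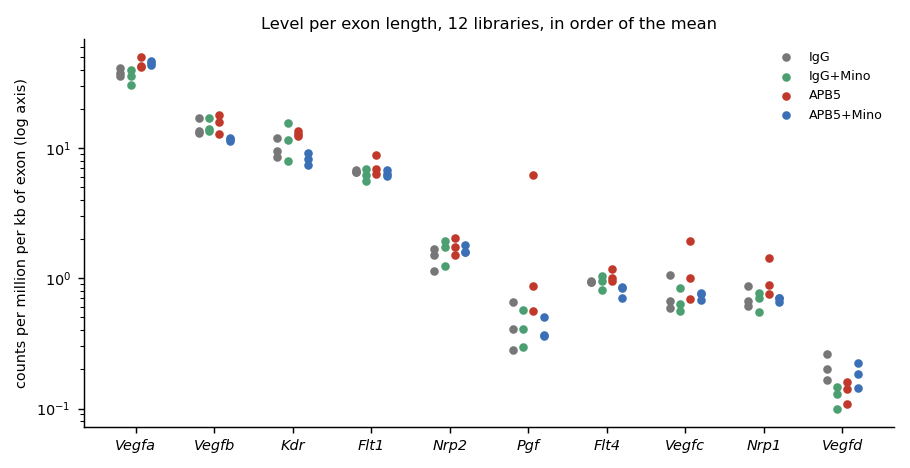
Level of each member per kilobase of annotated exon on a log axis, with 1 point per library colored by group and genes in order of their mean. Vegfa is the highest in every library and Vegfd the lowest of the means; the single high Pgf point, 6.23 CPM per kb, is APB5 replicate 3.

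Of the summed level of the 5 ligands per kilobase, Vegfa made up 65.6% to 78.2% and Vegfb 19.7% to 31.3%. Vegfc and Vegfd stayed at or below 2.53% and 0.504%. Pgf, which binds FLT1 but not KDR, held 0.536% to 8.20%, and the highest of these shares was that of APB5 replicate 3.

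Pairs of groups were compared with the quasi-likelihood F test of edgeR. Every adjusted p below is from edgeR, adjusted by Benjamini-Hochberg across all genes tested, unless another tool is named. A gene passed at an adjusted p of at most 0.05 and was called if its log2 fold change was also at least 1 in size. Between APB5 and IgG, 0 of the 10 members were called or passed, where 0% of 20350 genes were called and 0% passed. Of the members, 2 had an unadjusted p under 0.05, and 7.23% of all genes did. DESeq2 and voom passed 0 members as well. The libraries of both groups did not overlap for 3 of 10 members, against 15.7% of all genes. Of the members, 9 of 10 were higher in APB5, with a median log2 fold change of 0.26 against −0.0024 over all genes. Without APB5 replicate 3, 8 of 10 were higher, and the median was 0.145.

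Between APB5+Mino and APB5, 1 of 10 members passed and 0 were called, where 4.82% of 20281 genes passed and 1.66% were called. The member that passed was Kdr, and it was lower with minocycline. The groups did not overlap for 5 of 10 members, all lower in APB5+Mino, against 46.5% of all genes. Of the members, 8 of 10 were lower, with a median log2 fold change of −0.40 against −0.020 over all genes. Without APB5 replicate 3 the median was −0.238, and 3 of 10 were higher. The number of all genes that passed in this pair rested on single libraries, being 0 with the replicate block or without any 1 of the APB5+Mino libraries, 1 without APB5 replicate 1, 4185 without replicate 2 and 5484 without replicate 3, against 977 with all libraries.

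Between IgG+Mino and IgG, 0 members were called or passed, where 0.0298% of 20143 genes were called and as many passed. No member had an unadjusted p under 0.05, and 0 passed in DESeq2 or voom. The groups did not overlap for 1 of 10 members, against 14.4% of all genes. Between APB5+Mino and IgG+Mino, 0 of 10 members were called or passed. An unadjusted p under 0.05 was found for 3, against 29.3% of all genes, and DESeq2 passed 2, against 17.5%. Of 20049 genes, 1.23% were called and 8.09% passed in edgeR, which is 1621 genes, against 5, 0 and 2 genes without IgG+Mino replicate 3, APB5+Mino replicate 2 and APB5+Mino replicate 3. The groups did not overlap for 2 of 10 members, against 35.2% of all genes. The interaction asks whether the effect of minocycline differed between APB5 and IgG. Its IgG part sets libraries low in Xist against libraries high in it, so minocycline cannot be told apart from sex there. The interaction called and passed 0 members, with 0.0141% of 21228 genes called and as many passing. Against 17.1% of all genes, 3 members had an unadjusted p under 0.05. These were Kdr, Vegfd and Pgf, at log2 differences of −0.86, 1.10 and −2.52 (adjusted p = 0.195, 0.236 and 0.244), and Pgf was at −0.73 without APB5 replicate 3. DESeq2 passed 0 members in the interaction and voom 2, against 3.25% and 14.9% of all genes. Of all genes, 7.23%, 35.9%, 8.37% and 29.3% had an unadjusted p under 0.05 in the 4 pairs of groups, in the order above. DESeq2 passed 0.482%, 25.1%, 0.273% and 17.5% of them, shares to set beside the lists below.

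**Figure D2:**
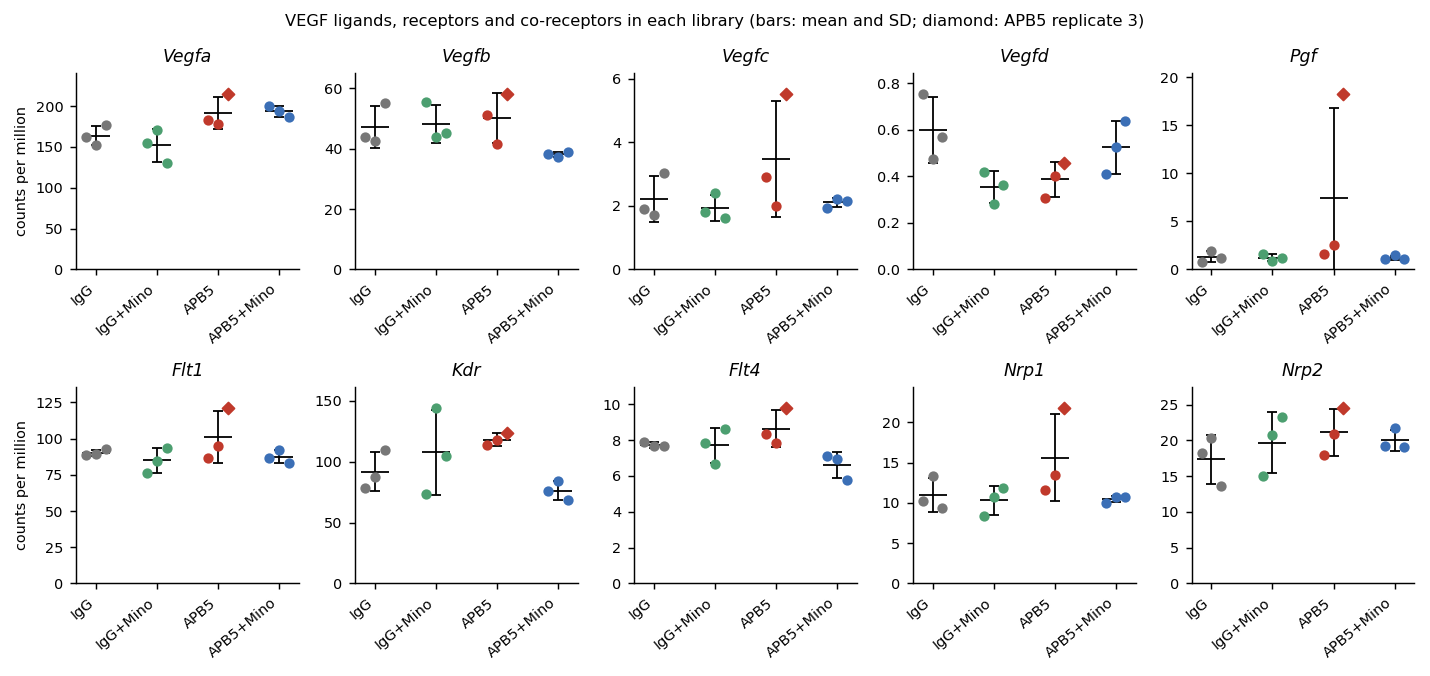
CPM of each member in each of the 12 libraries, with black bars for the mean and SD of 3 libraries (cut at 0) and a diamond for APB5 replicate 3; each panel has its own axis from 0. Kdr is lower in every APB5+Mino library than in any APB5 library, and Pgf stands at 18.2 CPM in the diamond and at or below 2.56 CPM elsewhere.

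Vegfa (chromosome 17, 46327919 to 46343309, minus strand; here and below positions are of the GRCm39 build in the GENCODE vM39 annotation) encodes the central ligand of the family. It had 162, 153 and 177 CPM in the IgG libraries and 183, 179 and 215 CPM in the APB5 libraries. It had 154, 171 and 131 CPM with IgG+Mino and 201, 193 and 187 CPM with APB5+Mino. Every library given APB5, with or without minocycline, thus lay above every library given IgG, with or without it.

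The difference in Vegfa was small and did not pass in either background. The log2 fold change was 0.23 in APB5 against IgG (SE 0.14, 95% interval −0.082 to 0.55, adjusted p = 0.689), and 0.15 without APB5 replicate 3. In APB5+Mino against IgG+Mino it was 0.35 (SE 0.10, interval 0.11 to 0.58, adjusted p = 0.0682), which is 1.27-fold, and it passed in DESeq2 (adjusted p = 0.0221). Its adjusted p ranged from 0.0171 to 0.208 over the other settings that kept all libraries. Minocycline made no difference to Vegfa that could be detected in APB5 retinas, with a log2 fold change of 0.0081 (interval −0.26 to 0.28, adjusted p = 0.964). In IgG retinas it was −0.10 (interval −0.38 to 0.18, adjusted p = 0.819). The interval for APB5 retinas reaches from a level of 0.835 to a level of 1.21 times that without minocycline.

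Vegfb (chromosome 19, 6958447 to 6965127, minus strand) encodes a ligand of FLT1 that is known for supporting the survival of vessels and neurons. It had 43.9, 42.6 and 55.2 CPM with IgG, 55.3, 43.8 and 45.2 with IgG+Mino, 51.2, 41.5 and 58.0 with APB5 and 38.4, 37.1 and 38.7 with APB5+Mino. The 3 APB5+Mino libraries were the lowest of the 12 and lay close to each other. Vegfb was lower in APB5+Mino than in APB5 by a log2 fold change of −0.40 (adjusted p = 0.0875, SE 0.13) and than in IgG+Mino by −0.34 (adjusted p = 0.0733, SE 0.11). Neither passed in edgeR. DESeq2 passed the second (adjusted p = 0.0287) and voom passed both (adjusted p = 0.0265 and 0.0368). The ratio of Vegfa to Vegfb per kilobase was 3.85 ± 0.176 in APB5+Mino, against 2.92 ± 0.298 in APB5, 2.64 ± 0.198 in IgG and 2.42 ± 0.467 in IgG+Mino (SD, n = 3 each). Its lowest APB5+Mino library, at 3.65, lay above the highest library of the other groups, at 3.26.

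Pgf (chromosome 12, 85213409 to 85224564, minus strand), a ligand of FLT1 linked to disease-driven vessel growth, had the largest fold change of the family and the widest spread. It had 0.824, 1.93 and 1.19 CPM with IgG, 1.66, 0.863 and 1.19 with IgG+Mino, 1.64, 2.56 and 18.2 with APB5 and 1.07, 1.46 and 1.05 with APB5+Mino. A single library, APB5 replicate 3, had 7.14 times the level of the next highest. The other APB5 libraries overlapped with IgG, and all APB5 libraries lay above all APB5+Mino libraries.

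The log2 fold change of Pgf against IgG was 2.49 in APB5 (SE 0.91, interval 0.37 to 4.61, adjusted p = 0.664) and of 0.67 without APB5 replicate 3. It passed only in a fit with Xist as a covariate, 1 of the settings tried (adjusted p = 0.0149). In APB5+Mino against APB5 its log2 fold change was −2.62 (adjusted p = 0.0926, SE 0.90), and −0.80 without that library (adjusted p = 0.0527). DESeq2 passed Pgf in this pair (adjusted p = 0.00541). In the library where Pgf was high, the microglial and pigment epithelium markers were also at their highest and the rod genes at their lowest, and their part in the level of Pgf was not tested.

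Vegfc (chromosome 8, 54530257 to 54640131, plus strand) and Vegfd (chromosome X, 163156240 to 163185646, plus strand) encode the ligands of FLT4 and were scarce. Vegfc had 1.70 to 3.02 CPM with IgG, 1.61 to 2.40 with IgG+Mino, 1.95 to 2.204 with APB5+Mino and 2.89, 1.99 and 5.51 with APB5, with the highest value again in replicate 3. All 4 groups overlapped. Vegfd had 0.754, 0.474 and 0.570 CPM with IgG, 0.419, 0.282 and 0.365 with IgG+Mino, 0.307, 0.402 and 0.456 with APB5 and 0.411, 0.527 and 0.640 with APB5+Mino, from 16 to 43 counts in a library. Its IgG libraries lay above those of APB5 and of IgG+Mino. The log2 fold changes of Vegfd were −0.58 in APB5 against IgG (adjusted p = 0.686, SE 0.32) and −0.69 in IgG+Mino against IgG (adjusted p = 0.585, SE 0.33). Vegfd is X-linked, and the IgG libraries were the ones that were all high in Xist. Whether sex plays a part in the level of Vegfd was not tested.

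Kdr (chromosome 5, 76093487 to 76139884, minus strand) encodes VEGF receptor 2, through which most effects of VEGFA on endothelium pass. Flt1 (chromosome 5, 147498414 to 147662826, minus strand) encodes VEGF receptor 1. The 250 bases before the RefSeq start of each gene are printed as the control regions of the receptor that passed and of the one that did not. They come from a RefSeq table of the GRCm38.p6 build and were matched to GRCm39, on the minus strand of chromosome 5 at 76139116 to 76139365 for Kdr and at 147662822 to 147663071 for Flt1. Capitals mark GGAA, the core recognized by ETS factors, and ACGTG or GCGTG, the core recognized by hypoxia-inducible factors, on either strand. In Kdr a GCGTG is followed directly by a GGAA, and no marks overlap.
Kdr: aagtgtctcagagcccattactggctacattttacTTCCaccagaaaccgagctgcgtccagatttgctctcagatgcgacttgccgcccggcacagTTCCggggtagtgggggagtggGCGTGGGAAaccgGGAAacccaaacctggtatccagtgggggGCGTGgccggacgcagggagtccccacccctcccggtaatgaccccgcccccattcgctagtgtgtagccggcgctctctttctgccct
Flt1: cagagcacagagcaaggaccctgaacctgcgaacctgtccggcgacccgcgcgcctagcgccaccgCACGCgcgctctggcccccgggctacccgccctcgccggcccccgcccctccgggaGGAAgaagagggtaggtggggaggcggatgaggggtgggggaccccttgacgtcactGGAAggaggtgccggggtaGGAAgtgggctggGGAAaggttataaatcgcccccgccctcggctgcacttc

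Kdr and Flt1 each held 4 matches to GGAA in these bases, and 33.4% of 32851 promoters in the RefSeq table held at least 4. The hypoxia core matched in 2 places in Kdr and 1 place in Flt1, and 38.6% of all promoters held at least 1 match. Of the 12 windows that the table lists for the 10 members, 7 held the hypoxia core and 10 held GGAA, which 93.4% of all promoters held. These matches are letters in a short window and say nothing of which factor binds there.

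Kdr had 78.5, 87.3 and 110 CPM with IgG and 114, 117 and 124 CPM with APB5. It had 73.7, 144 and 105 CPM with IgG+Mino and 76.0, 84.3 and 68.4 CPM with APB5+Mino. APB5 libraries were thus all higher than IgG libraries, and all APB5+Mino libraries were lower than all APB5 libraries. The highest level of all was in IgG+Mino replicate 2, and that group had the widest spread.

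Kdr fell in APB5+Mino against APB5 by 0.64 on the log2 scale (SE 0.11, interval −0.89 to −0.38, adjusted p = 0.0461), to 0.643 times the level without minocycline. With the replicate number as a block, since same-numbered libraries deviated together in this comparison, the adjusted p was 0.0641. Without APB5 replicate 3 the log2 fold change was −0.60 (adjusted p = 0.00485). The adjusted p was 0.105 without APB5 replicate 1, and 0.117, 0.214 and 0.205 without APB5+Mino replicates 1, 2 and 3, at log2 fold changes of −0.66, −0.63, −0.71 and −0.56.

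By edgeR with all libraries, Kdr did not pass in the other comparisons, while voom passed it in APB5+Mino against IgG+Mino at −0.63 (adjusted p = 0.0149). Its log2 fold change was 0.37 in APB5 against IgG (SE 0.15, unadjusted p = 0.0400 and adjusted p = 0.664 by edgeR), 0.24 in IgG+Mino against IgG (adjusted p = 0.748, SE 0.23) and −0.50 in APB5+Mino against IgG+Mino (adjusted p = 0.145, SE 0.21). The last was −0.71 without IgG+Mino replicate 1 (adjusted p = 0.00679) and −0.24 without replicate 2 (adjusted p = 0.344), and without replicate 2 the effect of minocycline in IgG retinas was −0.024. The difference between the effect of minocycline in APB5 and in IgG retinas was −0.86 on the log2 scale (adjusted p = 0.195, SE 0.29). The effect was thus not shown to differ between them by edgeR, while voom passed this difference at −1.06 (adjusted p = 0.00825). In its IgG part, minocycline cannot be told apart from sex.

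Flt1 did not pass in any pair of groups. It had 88.9, 89.4 and 92.7 CPM with IgG, 76.2, 84.8 and 93.8 with IgG+Mino, 86.8, 94.6 and 121 with APB5 and 86.6, 92.4 and 83.4 with APB5+Mino. All 4 groups overlapped, and the highest library was APB5 replicate 3. Its log2 fold change was 0.16 in APB5 against IgG (interval −0.19 to 0.52, adjusted p = 0.778), and −0.21 in APB5+Mino against APB5 (interval −0.54 to 0.12, adjusted p = 0.314). Per kilobase, the ratio of Kdr to Flt1 was 1.77 ± 0.222 in APB5 and 1.29 ± 0.0696 in APB5+Mino (SD, n = 3), and the libraries did not overlap. It was 1.51 ± 0.229 in IgG, which overlapped with both, and 1.87 ± 0.573 in IgG+Mino, whose libraries overlapped with APB5 and lay above APB5+Mino.

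Flt4 (chromosome 11, 49500090 to 49543582, plus strand) encodes VEGF receptor 3, the receptor of VEGFC and VEGFD. It had 7.65 to 7.92 CPM with IgG, 6.69 to 8.62 with IgG+Mino, 8.33, 7.83 and 9.78 with APB5 and 7.11, 6.96 and 5.80 with APB5+Mino. Its APB5+Mino libraries lay below all APB5 libraries, at a log2 fold change of −0.39 (adjusted p = 0.136, SE 0.16). The log2 fold change in APB5 against IgG was 0.16 (adjusted p = 0.800).

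Nrp1 (chromosome 8, 129085085 to 129231082, plus strand), a co-receptor for VEGFA and for class 3 semaphorins, had 10.2, 13.4 and 9.36 CPM with IgG and 8.34, 10.8 and 11.8 with IgG+Mino. It had 11.6, 13.5 and 21.8 CPM with APB5 and 10.04, 10.7 and 10.8 with APB5+Mino. The APB5+Mino libraries were all below the APB5 libraries, and replicate 3 of APB5 was 1.61 times the next highest library. Its log2 fold change in APB5+Mino against APB5 was −0.58 (adjusted p = 0.133, SE 0.24), and −0.26 without APB5 replicate 3 (adjusted p = 0.116).

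Nrp2 (chromosome 1, 62742444 to 62857854, plus strand), the neuropilin that serves VEGFC and lymphatic vessels, overlapped between all groups. It had 13.6 to 20.3 CPM with IgG, 15.0 to 23.3 with IgG+Mino, 18.0 to 24.5 with APB5 and 19.1 to 21.7 with APB5+Mino. Its log2 fold changes ran from −0.084 in APB5+Mino against APB5 to 0.29 in APB5 against IgG, and none passed (adjusted p of 0.686 to 0.952 over the 4 pairs of groups).

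APB5 replicate 3 had the highest level of 8 of the 10 members among the 12 libraries, the exceptions being Kdr and Vegfd. With all libraries, Vegfa, Kdr and Vegfd did not overlap between APB5 and IgG, and leaving out replicate 3 cannot make them overlap. The subset without replicate 3 sets IgG libraries high in Xist against APB5 libraries low in Xist. APB5 thus cannot be told apart from sex there. Likewise, Kdr, Vegfb, Pgf, Flt4 and Nrp1 lay lower in APB5+Mino than in APB5 with all libraries, which leaving out replicate 3 cannot change. Without replicate 3, Vegfa and Vegfd also separated in that comparison and were higher in APB5+Mino, at log2 fold changes of 0.096 and 0.52 (adjusted p = 0.398 and 0.299). The share of all genes that separate in these subsets was not computed. With all libraries it was 15.7% in APB5 against IgG and 46.5% in APB5+Mino against APB5, and fewer libraries separate more easily.

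**Figure D3:**
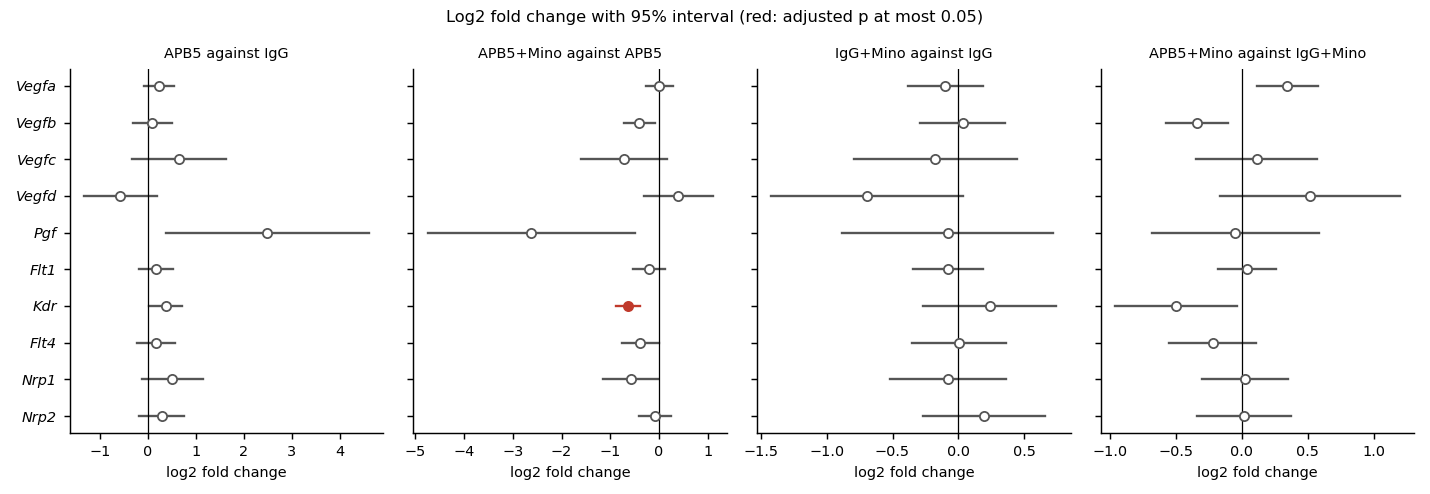
Log2 fold change of each member with its 95% interval in the 4 pairs of groups, each panel with its own horizontal axis; red marks an adjusted p of at most 0.05 by edgeR. Kdr in APB5+Mino against APB5 is the single red point, and the intervals of Pgf are the widest in the 2 comparisons that hold the APB5 group.

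The summed ratio of ligand to receptors was also taken within each library, since it does not depend on scaling. Vegfa stood at 3.08 ± 0.217 times the sum of Flt1 and Kdr per kilobase in APB5+Mino and at 2.21 ± 0.0854 times in APB5 (SD, n = 3). Its values with APB5+Mino were 3.19, 2.83 and 3.21, above every library of the other groups, of which the highest was 2.64. It was 2.31 ± 0.177 in IgG and 2.04 ± 0.525 in IgG+Mino. These ratios were given as a description and not tested.

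Since the receptors act on endothelium, they were set beside 17 endothelial markers that leave out the members. Which cells of the retina made the receptors was not tested. The library with the highest Kdr, IgG+Mino replicate 2 at 144 CPM, had the lowest sum of these markers in its group, at 83.9 CPM. The mean log2 CPM of these markers differed by −0.90 between APB5+Mino and APB5 and by −0.43 between IgG+Mino and IgG, in both cases without overlap. All 17 were lower in the first of these pairs, with a median log2 fold change of −0.88, and 2 passed: Cldn5, a tight junction protein, and Tie1, an orphan receptor of vessels, at −1.68 and −1.50 (adjusted p = 0.0417 and 0.0461). Without APB5 replicate 3, a setting chosen after seeing the data, 10 of 17 passed and the median was −0.73, and with the replicate block 0 passed, as in every list below in this pair. DESeq2 passed 10. Relative to the markers, Kdr was 0.26 higher on the log2 scale in APB5+Mino than in APB5, with overlap, and Flt1 was 0.71 higher, without overlap. With Pecam1 and Cdh5 alone as the reference, the difference was −0.21 for Kdr, with overlap, and 0.24 for Flt1, without overlap. The direction for Kdr thus turned with the reference. Whether the endothelial share of the tissue plays a part in the lower Kdr was not tested.

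Genes that VEGF receptors are known to induce moved in the same comparison. Of 17 such genes tested, 16 were lower in APB5+Mino than in APB5, 5 passed and 4 of these were called, with a median log2 fold change of −1.38. They included Nr4a1 and Nr4a2, nuclear receptors induced early after many stimuli, at log2 fold changes of −2.29 and −0.92 (adjusted p = 0.0430 and 0.0447), and Apln, a peptide of tip cells, at −1.38 (adjusted p = 0.0461). Without APB5 replicate 3, 11 of 17 passed, all lower, with a median of −0.86, while 0 passed with the replicate block. Nr4a and Egr genes respond to neuronal activity and to handling of tissue as well as to VEGF, and the list cannot tell these apart. Esm1, a further gene of the list, was not tested because of low counts. Against IgG+Mino, 6 of 17 passed in APB5+Mino, all lower, among them Nr4a1, Nr4a3 and Egr1 at −2.06, −1.62 and −2.96 (adjusted p = 0.0125, 0.0158 and 0.0196). In APB5 against IgG all 17 were higher, with a median of 0.74, and 0 passed in edgeR, while 7 had an unadjusted p under 0.05 and DESeq2 passed 3. Without APB5 replicate 3 that median was 0.27. Apln and Nr4a3 had the smallest p, at log2 fold changes of 1.08 and 1.92 (adjusted p = 0.664 both). The sum of the list was 888, 494 and 2131 CPM in the APB5 libraries and 253 to 275 CPM in the APB5+Mino libraries. Minocycline in IgG retinas passed 0 of them in edgeR and in DESeq2, with 2 at an unadjusted p under 0.05 and a median of 0.023.

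Among 18 tested genes induced by hypoxia, 1 passed as higher and 1 as lower in APB5+Mino against APB5 by edgeR. Without APB5 replicate 3 these counts were 3 and 7, and DESeq2 with all libraries also passed 3 and 7. Of the 18, 6 were higher and 12 lower, and 11 had an unadjusted p under 0.05. Ndufa4l2, a mitochondrial protein, fell by 2.79 on the log2 scale (adjusted p = 0.0203), and Pfkfb4, a regulator of glycolysis, rose by 0.63 (adjusted p = 0.0461). Ndufa4l2 averaged 3.33 CPM in IgG, 2.56 in IgG+Mino, 12.02 in APB5 and 1.71 in APB5+Mino. Adm, which encodes the vasodilator adrenomedullin, was 3.11 higher on the log2 scale in APB5 than in IgG without passing (adjusted p = 0.664). Adm rose by 1.78 in APB5+Mino against IgG+Mino (adjusted p = 0.0368), and Eno1, Pgk1 and Bnip3, for a pair of glycolytic enzymes and a mitophagy protein, fell, at −0.38, −0.40 and −0.33 (adjusted p = 0.0328, 0.0422 and 0.0449). Of the 18, 0 passed in APB5 against IgG and in IgG+Mino against IgG by edgeR, with 4 and 1 at an unadjusted p under 0.05, and DESeq2 passed 2 and 0.

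Of 10 oxygen sensing genes, 3 passed in APB5+Mino against IgG+Mino and 0 in the other pairs of groups by edgeR, where 2 in APB5 against IgG, 5 in APB5+Mino against APB5 and 2 in IgG+Mino against IgG had an unadjusted p under 0.05. DESeq2 passed 0, 3 and 0 in these. Hif3a, an inhibitory member of the family, and Hif1an, which blocks HIF activity, rose by 0.97 and 0.35 (adjusted p = 0.0125 and 0.0280), and Vhl, which marks HIF for destruction, fell by 0.36 (adjusted p = 0.0367). Hif3a and Vhl were at 0.86 and −0.44 in APB5+Mino against APB5 and missed the threshold (adjusted p = 0.0516 and 0.0529). The smallest p in APB5 against IgG were those of Egln3 and Arnt2, at 1.95 and 0.59 (adjusted p = 0.664 both), and in IgG+Mino against IgG those of Egln1 and Arnt, at 0.26 and 0.27 (adjusted p = 0.585 both).

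Semaphorins and plexins share the neuropilins with VEGF. Of 12 genes, 1 passed in any pair of groups: Plxna1, a plexin that pairs with neuropilins, rose by 0.56 in APB5+Mino against APB5 (adjusted p = 0.0476). Plxnd1 and Sema3b were at 1.08 and 1.93 in APB5 against IgG (adjusted p = 0.664 both). Of 30 tested genes for signaling below the receptors, 0 passed in APB5+Mino against APB5 by edgeR and 7 by DESeq2. An unadjusted p under 0.05 was found for 11 of them, against 35.9% of all genes. The smallest were those of Nos3, which makes nitric oxide in vessels, and the adaptor Nck2, at −0.60 and −0.79 (adjusted p = 0.0586 and 0.0620). Of the 30, 2 fell in APB5+Mino against IgG+Mino, the kinase Mapkapk2 and Nck2, at −0.41 and −0.45 (adjusted p = 0.0238 and 0.0458). Of 17 genes that modulate the receptors or hold their ligands, 0 passed in APB5+Mino against APB5 by edgeR and 5 by DESeq2, with 7 at an unadjusted p under 0.05. Efnb2, an ephrin needed for uptake of VEGF receptors, was at −0.64 there (adjusted p = 0.0596), and Ccn2, which binds VEGFA, at −1.96 (adjusted p = 0.0585). Ccn2 fell by 1.28 in APB5+Mino against IgG+Mino (adjusted p = 0.0125). Of these 3 lists, 0 genes passed in APB5 against IgG and IgG+Mino against IgG by edgeR and by DESeq2. The counts at an unadjusted p under 0.05 were 2, 0 and 8 in the first pair and 2, 1 and 3 in the second for semaphorins and plexins, signaling and modulators.

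**Figure D4:**
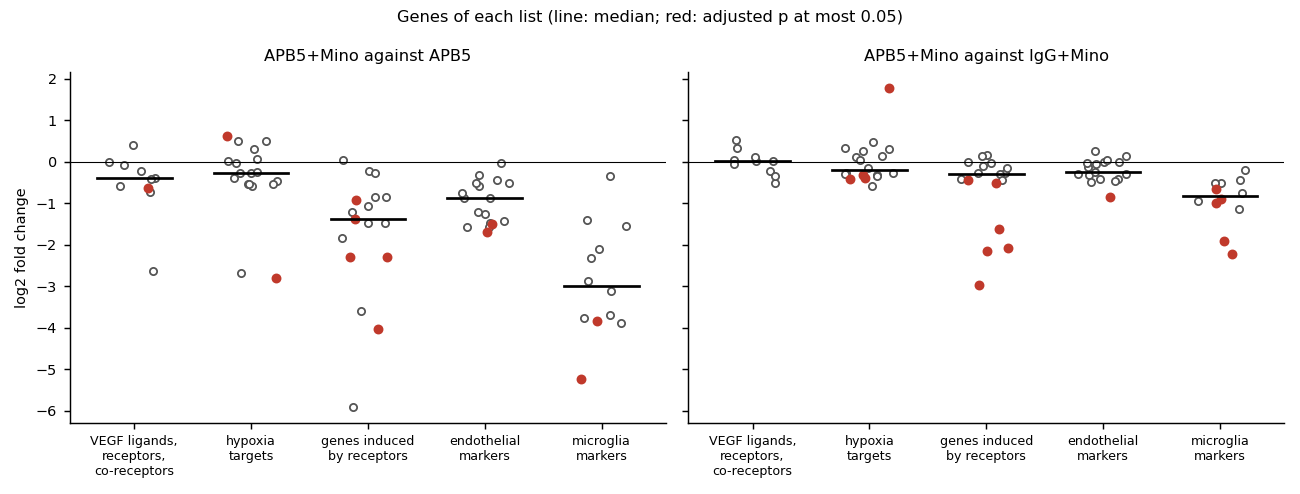
Log2 fold change of each tested gene of 5 lists in APB5+Mino against APB5 and against IgG+Mino, with 1 point per gene, a line at the median and red for an adjusted p of at most 0.05 by edgeR. In the left panel the median of the members is −0.40, beside −1.38 for genes induced by VEGF receptors, −0.88 for endothelial markers and −2.99 for microglial markers.

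Markers of other cells moved in the same comparisons. All 12 microglial markers were lower in APB5+Mino than in APB5, with a median of −2.99, and 2 passed, Cx3cr1 and Fcrls, at −3.84 and −5.23 (adjusted p = 0.0447 and 0.0476). Without APB5 replicate 3, 10 of 12 passed and the median was −1.38. Rgs5 of pericytes and Gpr37 of glia fell, at −1.36 and −0.59 (adjusted p = 0.0461 and 0.0447). All 12 pigment epithelium markers were lower, with a median of −1.97, 7 at an unadjusted p under 0.05, and 0 passing in edgeR against 7 in DESeq2. The sum of the microglial list was 29.8 to 34.0 CPM in APB5+Mino, 77.9 to 422 in APB5, 47.2 to 55.0 in IgG+Mino and 63.9 to 95.3 in IgG. Compared with IgG+Mino, 5 of 12 microglial and 3 of 8 rod markers passed in APB5+Mino, all lower. So did 4 of 8 ganglion cell and 3 of 11 Müller glia and astrocyte markers, all lower. Of 10 pericyte markers, 1 passed, Mcam, and was higher, while 9 were lower, with a median log2 fold change of −0.25. In the comparisons of APB5 with IgG and of IgG+Mino with IgG, 0 markers of any cell type passed in edgeR, and DESeq2 passed 0 and 2. Without APB5 replicate 3, where APB5 and sex cannot be told apart, Gfap of glia passed and was higher in APB5 than in IgG. The part of these cells in the levels of the members was not tested.

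The genes whose levels followed a member most closely were found over the 12 libraries among 15815 genes with a mean of at least 1 CPM, by the smallest root mean square difference of centered log2 CPM. For Kdr they were Efnb2, Zfp423 and Prkg2, at 0.150, 0.155 and 0.158, where the spread of Kdr itself was 0.330. Efnb2 averaged 30.3 CPM in IgG, 30.9 in IgG+Mino, 37.8 in APB5 and 24.3 in APB5+Mino. For Pgf they were Il13ra1, Serpinf1 and Mmp2, at 0.290, 0.350 and 0.366 beside a spread of 1.13, and their highest levels, 10.1, 56.9 and 40.6 CPM, were in an APB5 library. For Vegfa they were Zfp825, Ctps2 and B4galnt4 at 0.0760 to 0.103, and for Flt1 Dtx4, Tacr1 and Lman1 at 0.0743 to 0.0917. The libraries share their composition and depth across genes, so this likeness is a description.

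The deposited transcript tables give the authors' mean normalized count of each RefSeq record per group, with no value per library, so no spread or test can be given. For 8 of the members the matched records added up to 94.5% to 102% of the mean count of the gene. For Flt1 they added up to 48.5% to 67.9%, the rest lying in records that the name table used here does not hold, and for Vegfd to 48.3% to 101%. Reads were single-end, and records of a gene share most of their sequence, so the split between records is an estimate.

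The shares of the Vegfa records differed little between groups. The 3 records NM_009505.4, NM_001287057.1 and NM_001317041.1, which have the same value in each group and are counted jointly, made up 42.2% in IgG, 46.5% in IgG+Mino, 42.6% in APB5 and 44.4% in APB5+Mino. NM_001110267.1 made up 25.1%, 26.2%, 25.7% and 22.7% in the same order. The largest shift of any Vegfa record was 0.681 points in APB5 against IgG, and 91.1% of genes with at least 2 distinct records had a shift at least as large. It was 3.03 points in APB5+Mino against APB5 and 4.25 points in IgG+Mino against IgG, which 77.9% and 65.3% of genes reached. The records of Vegfb, NM_001185164.1 and NM_011697.3, shifted by 3.21, 0.886 and 4.59 points in these pairs. Kdr was carried by NM_010612.3, which made up 97.2% to 99.7% of the gene in every group.

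Among the matched Flt1 records, 1 had a higher mean in both groups given minocycline than in those without it, with no spread to set this against. The matched records added up to 48.5% of the gene's count in IgG and 67.9% in IgG+Mino, and to 54.4% and 64.9% in APB5 and APB5+Mino. In the IgG pair minocycline cannot be told apart from sex. NM_010228.4 had a mean of 127 in IgG and 909 in IgG+Mino, and of 206 in APB5 and 906 in APB5+Mino, each pair read from the table of its own comparison. This is 2.45% and 19.3% of the gene's mean count with IgG, and 3.44% and 19.4% with APB5. The ratio was 7.17 in IgG+Mino against IgG, where 5.31% of records with a mean of at least 100 differed by as much in either direction, and 4.40 in APB5+Mino against APB5, where 11% did. NM_001363135.1, the largest of the matched records, had means of 2329 and 2261 without and with minocycline in IgG retinas, and of 3001 and 2108 in APB5 retinas. The level of the whole gene did not follow the smaller record, with log2 fold changes of −0.078 and −0.21 for minocycline in IgG and APB5 retinas. The files do not say which protein each record encodes.

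**Figure D5:**
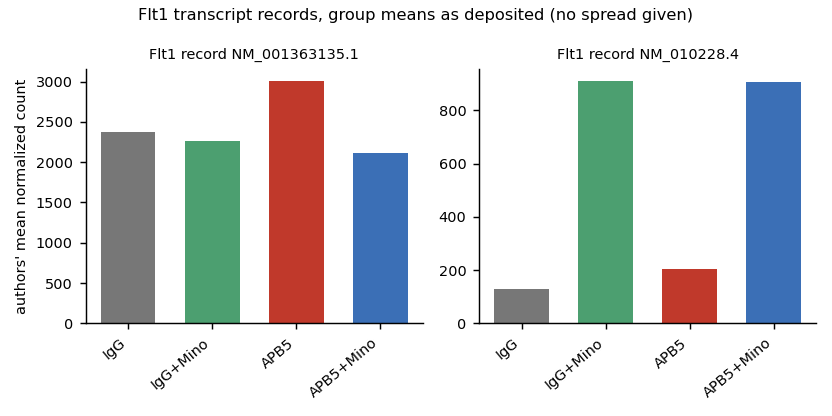
The authors' mean normalized count of the 2 Flt1 records with a mean of at least 100 among those matched by name, as bars from 0 per group. There are no error bars because the tables give none. The record NM_010228.4 stands at 909 and 906 in the groups given minocycline and at 129 and 206 in the others.

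The Nrp2 records were unstable between groups. NM_010939.2 had a mean of 107 in IgG and 106 in APB5+Mino and was listed at about 0 in APB5 and in IgG+Mino, while the gene itself overlapped between all groups. The largest shift of Nrp2 was 31.6 points in APB5+Mino against APB5, which 6% of genes reached, and that of Nrp1 was 8.78 points, which 50.1% reached.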

How the data were processed

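RNA of 12 retinal libraries was measured, 3 per group. Per the labels and the methods of the paper, the authors made strand-marked poly-A libraries, sequenced them single-end and used bcl2fastq 2.20 and the DRAGEN RNA pipeline on mm39 with an NCBI annotation. The pipeline's version and whether its counting used strand are not given in the sources used here. The authors deposited a table with the raw count of each gene in each library, of which 3 repeated columns were not used. The authors' deposited transcript tables give per group a signal, the mean normalized count, with scaling factors that are not stated. Their columns of log2 fold changes and p-values, and the gene result tables, hold the authors' own comparisons and were not used.

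CPM were computed with TMM factors over 12 libraries. Each pair of groups was fitted alone with R 4.3.3 and edgeR 4.0.16 (filterByExpr, TMM, quasi-likelihood F test, prior count of 2, Benjamini-Hochberg adjustment over all genes tested), which was checked on simulated data. The interaction used 12 libraries. Alternatives used limma 3.58.1 and DESeq2 1.42.0. Exon lengths came from GENCODE vM39 and names of transcript records from a RefSeq table of GRCm38.p6, which held 78.5% to 78.6% of the records with a value. Records with no value were left out.

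Beside the members, up to 3 genes of a list per direction were named by smallest p among those that passed, or the 2 with the smallest p where none did. The members and lists were chosen with earlier results of these data known. Per the paper, each group had 3 mice, so the libraries of a group were taken as separate animals. An exact permutation test of 3 against 3 libraries cannot go below p = 0.1, so none was used. Same-numbered libraries deviated together in APB5+Mino against APB5, with correlations of 0.119 to 0.169 against −0.133 to 0.0113 for other numbers. In the other pairs the same-numbered correlations ran from −0.133 to 0.172, each pair having at least 1 value under 0.1.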

Additional observations from a re-analysis of the deposited data

How the results depend on the processing

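Of 850 fold changes of members recomputed under other settings, 775 kept direction and side of the threshold, 20 newly passed, 6 no longer passed and 49 turned. None of those that turned had passed. For APB5+Mino against APB5, 0 members passed with library size only (Kdr adjusted p = 0.0502) or with the replicate number as a block (Kdr −0.64, adjusted p = 0.0641), and 2 with DESeq2, voom, all 12 libraries in 1 fit, or Xist as a covariate, 1 of them called except with voom. Leaving out a library gave 0 to 2. For APB5+Mino against IgG+Mino, 2 passed with DESeq2 and with the replicate block (Vegfa and Vegfb), and 3 with voom (Vegfa, Vegfb and Kdr). In this pair 1 passed with no count filter (Vegfa), and 0 to 2 with a library left out. With Xist as a covariate, 1 member, Pgf, was called and passed in APB5 against IgG and in the interaction, and voom called and passed 2, Vegfd and Kdr, in the interaction. The block changed no other call. The cause was not tested.

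Among the fold changes that turned, Vegfa was at −0.087 with library size only and Nrp2 at 0.032 with voom in APB5+Mino against APB5. In IgG+Mino against IgG they were Vegfb and Flt4 at −0.042 and −0.079 with library size only, Vegfc and Flt1 at 0.010 and 0.0077 with voom, Flt4 at −0.0054 with all libraries and −0.0024 with the block, and Vegfc, Pgf, Flt1 and Nrp1 at 0.38, 1.60, 0.062 and 0.32 with Xist. In APB5+Mino against IgG+Mino they were Pgf, Flt1, Nrp1 and Nrp2 at 0.052, −0.044, −0.059 and −0.12 with voom, and Vegfc, Flt1, Nrp1 and Nrp2 at −0.084, −0.011, −0.12 and −0.024 with Xist.

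With a library left out, log2 fold changes that had not passed spanned 0 as follows. In APB5 against IgG, Vegfb ran from −0.023 to 0.21. In APB5+Mino against APB5, Vegfa ran from −0.040 to 0.096 and Nrp2 from −0.19 to 0.036. In IgG+Mino against IgG, the ranges were −0.077 to 0.16 for Vegfb, −0.35 to 0.11 for Vegfc, −0.34 to 0.29 for Pgf, −0.024 to 0.45 for Kdr, −0.092 to 0.10 for Flt4 and −0.20 to 0.087 for Nrp1. In APB5+Mino against IgG+Mino, they were −0.015 to 0.28 for Vegfc, −0.25 to 0.21 for Pgf, −0.034 to 0.11 for Flt1, −0.11 to 0.12 for Nrp1 and −0.14 to 0.15 for Nrp2. In the interaction, Flt1 ran from −0.21 to 0.012. Counts were lowest for Vegfd and Pgf, with as few as 16 and 47 in a library.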
